A study of Mus musculus with 12 samples.

Results

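The mouse carries 39 Hox genes in 4 clusters, and all 39 were found among the 55487 gene IDs of the deposited files by their symbol, Hox followed by a cluster letter and a paralog number. Female C57BL/6 mice, an inbred strain, had been given folic acid in juvenile life, and their right thoracic mammary fat pads were taken 4 weeks later, at an age of 84 days. One group of 6 libraries had received 5 mg/kg folic acid and the other 6 had received 1 mg/kg, and no library without supplement is analysed here. Pads were taken whole, so each library mixed adipocytes, epithelium, vessels, nerve, muscle and immune cells as they lay in that pad. No batch is named in the labels, nor whether each library is 1 animal, so each p measures only how these samples spread, which may be technical. Of the 39 members, 26 passed the filter on low counts and were tested for dose. The other 13 were Hoxa11, Hoxa13, Hoxb1, Hoxb13, Hoxc10, Hoxc11, Hoxc12, Hoxc13, Hoxd1, Hoxd3, Hoxd11, Hoxd12 and Hoxd13, and each of them had at least 1 read in some library.

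Hox genes encode transcription factors that give cells along the body axis their position. Within a cluster the genes lie in the order in which they are used from head to tail, with low paralog numbers toward the head and high numbers toward the tail. Genes with the same number in different clusters are paralogs and encode closely similar proteins. Adult connective tissue, fat and muscle keep part of the code of the place in the embryo from which they came. The proteins bind DNA through the homeodomain, encoded by the homeobox, usually together with cofactors of the Pbx and Meis families. In the mammary gland, the group 9 genes act together in growth of the gland for lactation, and Hoxa5, Hoxc6, Hoxc8 and Hoxd10 have been studied in mammary and adipose cells.

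The 4 homeoboxes printed next are those around which the thoracic pattern turned, the 3 of paralog group 8 and that of Hoxc9, the gene that follows Hoxc8 in its cluster. They were read from the GENCODE vM21 transcripts (GRCm38), 5′ to 3′ on the coding strand, and each is 180 bases long. Capitals mark the 24 bases that encode the most conserved stretch of the recognition helix, which lies in the major groove of DNA. In each case the homeobox lay within the last exon of the transcript.
Hoxd8 homeobox, chr2:74706525-74706704, plus strand: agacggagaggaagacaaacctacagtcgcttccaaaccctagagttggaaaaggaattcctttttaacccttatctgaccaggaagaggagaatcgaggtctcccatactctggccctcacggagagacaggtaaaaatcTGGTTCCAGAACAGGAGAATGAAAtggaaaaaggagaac
Hoxc8 homeobox, chr15:102992571-102992750, plus strand: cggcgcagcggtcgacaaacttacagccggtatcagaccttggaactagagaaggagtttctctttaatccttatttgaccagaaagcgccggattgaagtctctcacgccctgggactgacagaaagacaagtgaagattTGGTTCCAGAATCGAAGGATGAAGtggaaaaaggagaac
Hoxb8 homeobox, chr11:96284174-96284353, plus strand: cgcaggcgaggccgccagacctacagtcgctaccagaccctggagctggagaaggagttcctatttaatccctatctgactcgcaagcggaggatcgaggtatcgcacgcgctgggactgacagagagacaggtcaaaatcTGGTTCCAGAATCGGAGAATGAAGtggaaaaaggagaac
Hoxc9 homeobox, chr15:102983930-102984109, plus strand: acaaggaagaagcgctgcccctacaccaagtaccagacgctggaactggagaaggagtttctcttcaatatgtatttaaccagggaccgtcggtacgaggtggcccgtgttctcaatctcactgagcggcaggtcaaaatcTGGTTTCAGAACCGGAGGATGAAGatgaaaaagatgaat
Translated, Hoxc8 and Hoxb8 differed at 1 residue of the homeodomain and at 36 bases of the homeobox. Hoxc8 and Hoxd8 differed at 4 residues and 48 bases, and Hoxb8 and Hoxd8 at 3 residues and 35 bases. Hoxc8 and its cluster neighbour Hoxc9 differed at 16 residues and 64 bases, a larger number than between any 2 of the group 8 genes. Over all 39 members, the median identity of the homeodomain was 93.3% for the 42 pairs of the same paralog group and 62.5% for the 172 pairs of the same cluster. At the level of bases these medians were 80.6% and 61.7%.

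The clusters also hold microRNA genes. Those of the miR-196 family lie among the tail-side genes of 3 clusters. Their mature sequences, from RefSeq on GRCm38, are given with the seed (bases 2 to 8) in capitals.
miR-196a-5p: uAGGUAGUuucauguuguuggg
miR-196b-5p: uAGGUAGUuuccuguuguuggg
Both share the seed AGGUAGU. Mir196a-1 lies between Hoxb13 and Hoxb9 (chr11:96265187-96265208), Mir196a-2 between Hoxc10 and Hoxc9 and within the long annotated span of Hoxc5 (chr15:102973365-102973386), and Mir196b within Hoxa9 (chr6:52230129-52230150). The motif ACTACCT, the exact match to the seed, was searched on the sense strand of the longest annotated coding transcript's 3′ UTR. It was in 8 of 39 members (Hoxa4, Hoxa5, Hoxa7, Hoxa9, Hoxb1, Hoxb6, Hoxb7 and Hoxc8) against 5.53% of the 20607 genes with an annotated 3′ UTR. Hoxa7 held 4 matches and Hoxc8 held 2, where 5.00% and 3.73% of genes with a UTR of similar length held any. The 2 windows of Hoxc8 are printed with the match in capitals.
Hoxc8 UTR bases 121 to 142: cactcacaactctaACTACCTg
Hoxc8 UTR bases 878 to 899: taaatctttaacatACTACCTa
For miR-10a-5p and miR-10b-5p, whose genes also lie in these clusters, the same search for the match to their shared seed (ACAGGGT) found it in 4 of 39 members, against 11.19% of genes. A match is a run of letters and not a shown site. Mature microRNAs were not measured in these libraries of polyadenylated RNA.

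Libraries held 48165752 to 75299437 gene-assigned reads, of which mitochondrial genes took 41.9% to 64.8%. Levels of different genes are compared here per length, as reads per kilobase of merged exons scaled to the same total over all genes in each library (TPM-like units). Levels of the same gene in different libraries are compared as CPM, reads scaled by TMM factors, which ran from 0.60 to 1.33. On the CPM scale, 17 of 39 members had a mean of at least 1, and on the per-length scale 15 did. The counts of Hox reads per library ran from 2659 to 5492, so the less abundant members rest on few reads per library.

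The thoracic pad carried a code centred on paralog groups 4 to 8. These 15 genes made up 82.5% ± 2.97 (SD, n = 12) of the summed per-length Hox level, with a range over libraries of 76.6% to 87.1%. Groups 1 to 3 (8 genes) gave 7.66% ± 1.61, groups 9 and 10 (7 genes) gave 9.69% ± 3.05, and groups 11 to 13 (9 genes) gave 0.149% ± 0.153. The last value rests on 63 reads in all 12 libraries together, against 38520 reads for groups 4 to 8. Group 8 alone held 32.5% ± 4.37, the largest share of any paralog group, and group 4 was next with 14.6% ± 1.88. Among the clusters, c held 30.7% ± 7.63, a held 26% ± 4.73, d held 26% ± 4.83 and b held 17.3% ± 2.49. All 4 overlapped in their range over libraries. In the 5 mg/kg libraries groups 4 to 8 held 83.5% ± 2.09 and in the 1 mg/kg libraries 81.5% ± 3.57 (SD, n = 6 each), a difference smaller than the spread within either group.

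**Figure D1:**
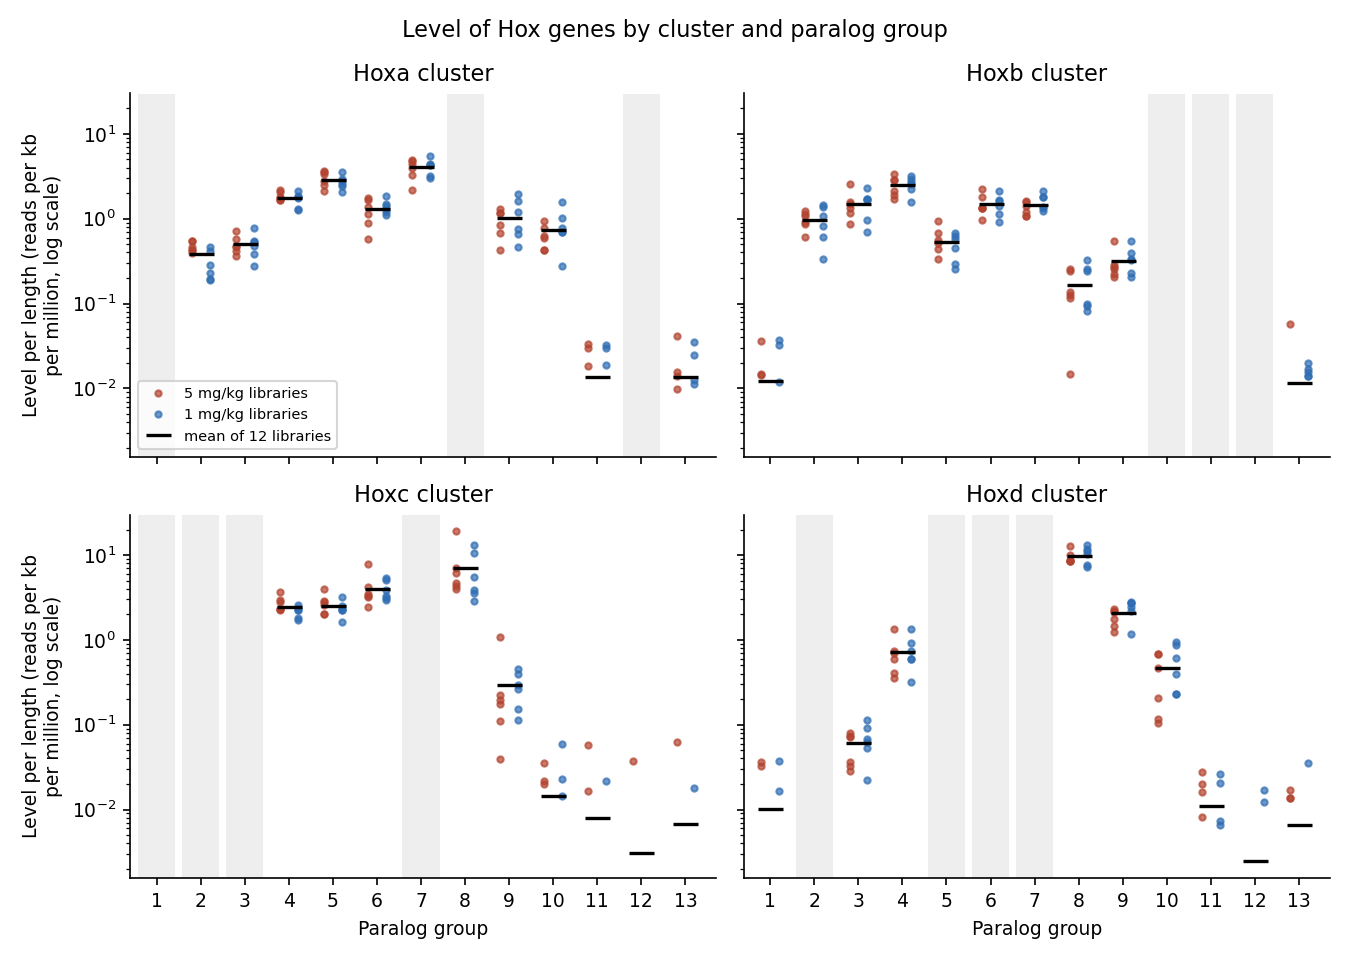
Per-length level (log scale) of the Hox genes reported here against paralog group, 1 panel per cluster. Points are libraries (libraries at 0 are not drawn), black dashes are means of 12 libraries including those at 0, and grey bands mark positions with no gene drawn. Levels peaked at Hoxd8 (9.86) and Hoxc8 (7.09) and were at or below 0.0137 for the genes of groups 11 to 13.

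In order of mean per-length level, the first 4 genes were Hoxd8, Hoxc8, Hoxa7 and Hoxc6. Hoxd8, the only member of its cluster between groups 4 and 9, stood at 9.86 ± 1.99 (range 7.28 to 13.1). Hoxc8 stood at 7.09 ± 4.89 with the widest range of these, 2.85 to 19.1. Hoxa7 and Hoxc6, both known from patterning of the thoracic vertebrae, stood at 4.03 ± 0.925 (2.21 to 5.43) and 4.01 ± 1.46 (2.46 to 7.78). The ranges of Hoxc8, Hoxa7 and Hoxc6 overlapped, and that of Hoxd8 overlapped those of Hoxc8 and Hoxc6. After them came Hoxa5 at 2.85 ± 0.567 (2.04 to 3.65), Hoxc5 at 2.54 ± 0.621 (1.64 to 3.97), Hoxb4 at 2.51 ± 0.591 (1.57 to 3.40), Hoxc4 at 2.44 ± 0.527 (1.70 to 3.69) and Hoxd9 at 2.10 ± 0.577 (1.17 to 2.77). These 5 did not separate beyond their spread. The last 6 genes with a mean of at least 1 were Hoxa4 at 1.77 ± 0.285 (1.26 to 2.16), Hoxb3 at 1.51 ± 0.557 (0.699 to 2.56), Hoxb6 at 1.49 ± 0.420 (0.922 to 2.27), Hoxb7 at 1.47 ± 0.325 (1.09 to 2.15), Hoxa6 at 1.32 ± 0.362 (0.578 to 1.84) and Hoxa9 at 1.02 ± 0.465 (0.431 to 1.96). Just below the floor of 1 lay Hoxb2 at 0.958 ± 0.330 and Hoxa10 at 0.739 ± 0.337.

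In cluster a, levels were low at Hoxa2 and Hoxa3, highest at Hoxa7 and lower beyond it, with a dip at Hoxa6. The head-end genes Hoxa2 and Hoxa3, which pattern the hindbrain and the tissues of the throat, stood at 0.382 ± 0.126 and 0.501 ± 0.141. Hoxa5, which is needed in the developing lung and respiratory tract, was the second highest of the cluster. On the CPM scale it read 1.64, 1.74, 2.99, 3.67, 4.36 and 4.76 CPM in the 5 mg/kg libraries and 1.38, 1.68, 2.45, 2.47, 2.53 and 4.55 CPM in those given 1 mg/kg. Hoxa7 read 4.27, 5.25, 5.84, 6.05, 6.39 and 7.78 CPM in the 5 mg/kg libraries and 3.14, 4.45, 4.52, 6.73, 7.02 and 8.53 CPM in those given 1 mg/kg. Neither gene separated the doses. Hoxa9 and Hoxa10, genes of the posterior trunk and, for Hoxa10, of the uterus, were still present at 1.02 ± 0.465 and 0.739 ± 0.337, while Hoxa11 and Hoxa13, genes of the distal limb and reproductive tract, had 10 and 12 reads in all libraries together. Without strand, reads of a Hox gene and of an antisense RNA that overlaps it cannot be told apart, and the antisense Hoxaas3 covers 20.4% of the exon bases of Hoxa7. Other annotated genes, on either strand, cover 27.1% of those of Hoxa3.

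In cluster b, with merged exons as length, the highest gene was Hoxb4, and Hoxb3, Hoxb6 and Hoxb7 followed at nearly equal means. With bases shared with another gene left out of the length, Hoxb3 was above Hoxb4 in 10 of 12 libraries. Hoxb1, known from the hindbrain, had 9 reads in total. Hoxb2 had 1203 reads and Hoxb3 2246, although 27.3% and 52.9% of their exon bases overlap Hoxb3os on the other strand. Hoxb4, studied in blood stem cells, had the lowest coefficient of variation of the 26 tested members with TMM scaling, 18.9%, and read 2.99, 3.04, 3.04, 3.20, 3.25 and 4.54 CPM in the 5 mg/kg libraries and 2.36, 2.58, 2.74, 2.85, 3.73 and 3.81 CPM in those given 1 mg/kg. Hoxb6 read 1.09, 1.45, 1.56, 1.66, 1.75 and 1.78 CPM in the 5 mg/kg libraries and 0.985, 1.00, 1.13, 1.23, 1.54 and 2.26 CPM in those given 1 mg/kg. Hoxb5 stood at 0.530 ± 0.190, lower than Hoxb4 on one side and Hoxb6 on the other. Beyond Hoxb7 the level fell to 0.166 ± 0.0941 for Hoxb8, the lowest of the group 8 genes, and was 0.320 ± 0.121 for Hoxb9. Hoxb13, a gene of the prostate and tail end, had 8 reads.

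In cluster c, Hoxc4 and Hoxc5 had nearly equal means, and levels climbed from Hoxc5 to Hoxc8 and then dropped. Hoxc6 read 3.16, 4.40, 4.59, 5.42, 5.45 and 6.97 CPM in the 5 mg/kg libraries and 2.84, 3.19, 3.29, 5.17, 5.96 and 7.02 CPM in those given 1 mg/kg. Hoxc8, known for its domain in the thoracic region of the spinal cord and rib cage, read 5.10, 7.23, 8.67, 10.5, 12.1 and 20.2 CPM in the 5 mg/kg libraries and 3.64, 3.97, 5.39, 6.83, 14.6 and 20.6 CPM in those given 1 mg/kg. Each dose had 1 library above 20 CPM, and the doses overlapped. Hoxc9, a gene used as a mark of white fat, stood at 0.292 ± 0.276 with 237 reads in all. Hoxc10, a gene of posterior and inguinal fat, had 9 reads, Hoxc11 and Hoxc13 had 5 each, and Hoxc12 had 1. Hoxc13 is active in hair follicles and nails.

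Cluster d has no genes of groups 5 to 7. It was dominated by Hoxd8, with very few reads for Hoxd1 and Hoxd3 and a low level of Hoxd4. Hoxd1 had 7 reads and Hoxd3 88, though 62.8% of the exon bases of Hoxd3 are shared with other annotated genes, among them Hoxd4. Hoxd4 stood at 0.723 ± 0.338, with 52.3% of its bases shared. Hoxd8 read 10.4, 11.4, 12.9, 13.01, 15.9 and 21.3 CPM in the 5 mg/kg libraries and 7.16, 9.87, 11.4, 15.1, 16.2 and 22.1 CPM in those given 1 mg/kg, and the doses overlapped. Hoxd9 read 1.86, 1.89, 2.04, 2.05, 2.13 and 2.41 CPM in the 5 mg/kg libraries and 1.36, 1.86, 2.06, 2.27, 2.66 and 4.00 CPM in those given 1 mg/kg. Hoxd10, studied in mammary epithelium and limb, stood at 0.461 ± 0.293 with 289 reads, and Hoxd11, Hoxd12 and Hoxd13, genes of the distal limb, had 15, 2 and 5 reads.

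Neighbours along a cluster were compared within each library, for the 11 pairs in which both genes had a mean of at least 1 CPM, by an exact two-sided sign-flip test over the 12 libraries. The smallest p it can give is 0.000488, and p-values were adjusted over these 11 pairs. Of them, 9 differed. Levels rose from Hoxa3 to Hoxa4 by 1.83 ± 0.569 on the log2 scale, from Hoxa4 to Hoxa5 by 0.68 ± 0.293 and from Hoxc5 to Hoxc6 by 0.62 ± 0.302, each in 12 of 12 libraries (SD, exact p = 0.000488, adjusted p = 0.000895). Hoxc8 exceeded Hoxc6 in 11 of 12 libraries, by 0.65 ± 0.439 (exact p = 0.000977, adjusted p = 0.00134). Hoxb3 exceeded Hoxb2 in 11 of 12 libraries, by 0.65 ± 0.497 with the same p. Hoxb4 exceeded Hoxb3 in 12 of 12 libraries, by 0.79 ± 0.366 (exact p = 0.000488, adjusted p = 0.000895). With the longest transcript as length the rise from Hoxa3 to Hoxa4 was 0.63, in 11 of 12 libraries (exact p = 0.00439, adjusted p = 0.00604), and that from Hoxb3 to Hoxb4 was 0.37, in 9 of 12 (exact p = 0.00391, adjusted p = 0.00604). Hoxc8 over Hoxc6 was then 0.39, in 9 of 12 (exact p = 0.0117, adjusted p = 0.0143), and Hoxc6 over Hoxc5 was 1.15. The order of Hoxb3 and Hoxb4 turned to -0.30 when bases shared with another gene were left out of the length while all reads were kept. On the tail side, Hoxa9 was below Hoxa7 in 12 of 12 libraries (log2 ratio -2.07 ± 0.451) and Hoxd9 below Hoxd8 in 12 of 12 (-2.26 ± 0.338), both at exact p = 0.000488 and adjusted p = 0.000895. Hoxa10 was below Hoxa9 in 10 of 12 libraries, with a log2 ratio of -0.45 ± 0.309 (exact p = 0.00293, adjusted p = 0.00358), or -0.88 with the longest transcript. No difference was called between Hoxb6 and Hoxb7 (log2 ratio 0.0014 ± 0.381, exact p = 0.99, adjusted p = 0.99) or between Hoxc4 and Hoxc5 (0.047 ± 0.273, exact p = 0.551, adjusted p = 0.606).

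Levels did not step down at the same numbers in every cluster. The drop to almost no reads came after Hoxa10, Hoxb9, Hoxc9 and Hoxd10, and the steps before it differed. In cluster c the mean per-length level of Hoxc8 was 24.3 times that of Hoxc9, with library ratios from 8.72 to 101, and Hoxc9 was 20.2 times Hoxc10. In cluster b a first step came between groups 7 and 8, where Hoxb7 was 8.86 times Hoxb8, although Hoxb9 was again 1.92 times Hoxb8. The larger drop there came later, with Hoxb9 27.9 times Hoxb13. In cluster d the decline went in steps, with Hoxd8 4.70 times Hoxd9 and Hoxd9 4.54 times Hoxd10, before a drop of 41.8 times from Hoxd10 to Hoxd11. In cluster a Hoxa7 was 3.96 times Hoxa9 and Hoxa9 was 1.38 times Hoxa10, and the large drop, 54.3 times, came between Hoxa10 and Hoxa11. With coding length in place of merged exons the steps were 31.4 times for Hoxc8 over Hoxc9, 5.76 for Hoxb7 over Hoxb8, 7.21 for Hoxd8 over Hoxd9 and 2.43 for Hoxa7 over Hoxa9. Hoxa11, Hoxa13, Hoxb13, Hoxc10, Hoxc11, Hoxc13, Hoxd11 and Hoxd13 had 5 to 15 reads over 12 libraries, and Hoxc12 and Hoxd12 had 1 and 2, so the ratios to them carry wide counting error.

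The head end had steps of its own. Hoxb2 was 78.3 times Hoxb1, and Hoxd4 was 11.8 times Hoxd3.

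Paralog group 8, whose members are nearly the same in the homeodomain, was uneven between its genes and between libraries. Mean per-length levels were 9.86, 7.09 and 0.166 for Hoxd8, Hoxc8 and Hoxb8. The ratio of Hoxc8 to Hoxd8 does not depend on the scaling of a library, and it ran from 0.218 to 1.76. The 5 mg/kg libraries gave 0.433, 0.475, 0.538, 0.738, 0.809 and 1.51, and those given 1 mg/kg gave 0.218, 0.299, 0.529, 0.537, 0.938 and 1.76. Hoxd8 was thus above Hoxc8 in 10 of 12 libraries, and 1 library of each dose had the opposite order. With the longest transcript or the coding length Hoxd8 was above in 9 of 12, and 2 libraries at 1 mg/kg and 1 at 5 mg/kg had the opposite order. The 2 doses overlapped throughout.

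**Figure D2:**
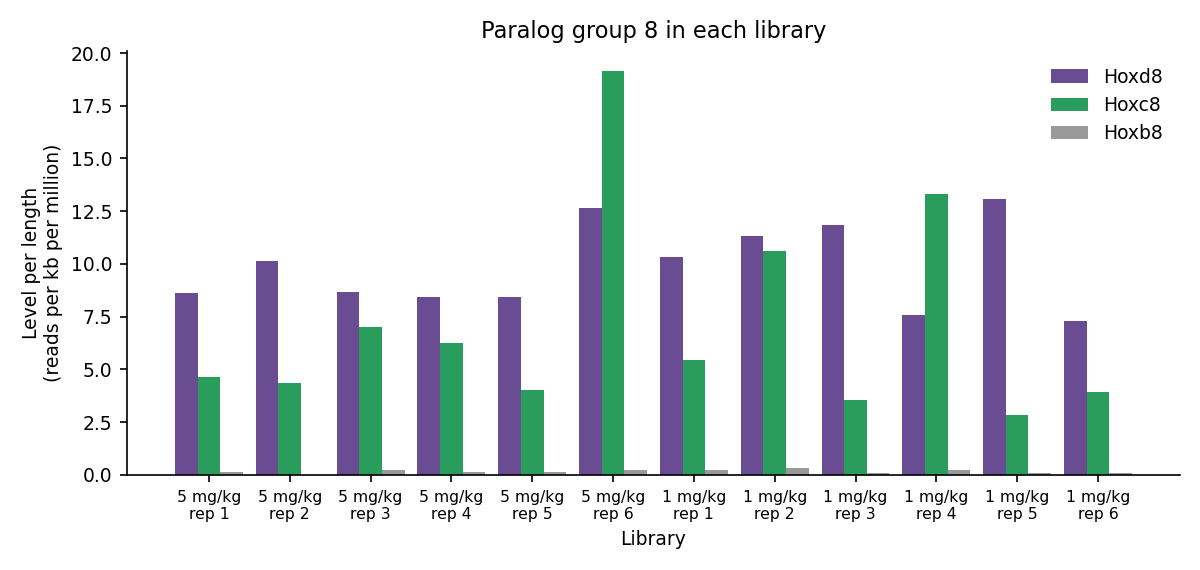
Per-length level of Hoxd8, Hoxc8 and Hoxb8 in each of the 12 libraries, labelled by folic acid dose and replicate number, which gives no order. Hoxc8 exceeded Hoxd8 in replicate 6 at 5 mg/kg (19.1 against 12.6) and in replicate 4 at 1 mg/kg (13.3 against 7.58), and Hoxb8 stayed at or below 0.327.

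Members differed in how much they varied over the 12 libraries. The coefficient of variation of CPM ran from 18.9% for Hoxb4 to 75.6% for Hoxc9, with a median of 31.9% over the 26 tested members. Scaled by library size alone, Hoxd8 had 18.8% (32.3% with TMM) and Hoxb4 19.3%, so which member varied least depended on the scaling. With TMM Hoxc8 varied by 59.7%, Hoxd10 by 55.8%, and Hoxb8 by 52.7%, while Hoxb7 varied by 22.6%. The edgeR biological coefficient of variation, which takes off counting error, was 0.557 for Hoxc8 against a median of 0.247 in 1346 genes of similar abundance, at the 93.3rd percentile. For Hoxd8 it was 0.338, at the 76.9th percentile of 1440 genes, and for Hoxb4 0.241, at the 20.5th percentile of 869.

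The pads differed in tissue content, and several members moved with it, as did many other genes. For 8 cell type lists the level, averaged over its genes as log2 CPM, was compared over the 12 libraries with the log2 CPM of each tested gene. P-values came from 100000 permutations and were adjusted over all 18647 tested genes and 8 lists (149176 relations). Of 208 relations of Hox members, 42 passed, 38 positive and 4 negative, and all 4 negative ones belonged to Hoxd10. Over all tested genes, the share passing in either direction ran from 7.33% (basal epithelium list) to 31.5% (white adipocyte list). The Hox share lay within this span, so the total is not read as a trait of Hox genes. With library size alone as the scale 24 passed, of which 15 passed under both scales with the same sign. The share of all genes that passed on that scale is not given here. In a bulk library, fewer cells of a type and less RNA per cell cannot be told apart.

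Hoxd8 followed skeletal muscle. Its r with the muscle list was 0.962 (permutation p = 1e-05, the smallest the permutations can give, adjusted p = 0.00135) and its rho was 0.965 (permutation p = 1e-05). The r was 0.931 without the 2 libraries farthest from the median, 0.911 within the 5 mg/kg libraries, 0.985 within the 1 mg/kg libraries and 0.821 with library size alone. The muscle list (Acta1, Ckm, fast myosins and other sarcomere genes) had all 14 genes tested and none at 0, with levels of 9.66 to 11.2 at 5 mg/kg and 9.07 to 11.7 at 1 mg/kg. Hoxa4, Hoxa5 and Hoxd9 also passed with this list, at r of 0.815, 0.847 and 0.749 (permutation p = 0.00145, 0.00077 and 0.00402, adjusted p = 0.0168, 0.0121 and 0.0296). Their rho was 0.804, 0.797 and 0.832 (permutation p = 0.00274, 0.00303 and 0.00145), and r without the 2 farthest libraries was 0.812, 0.760 and 0.621. None of these 3 passed with library size alone (r = 0.555, 0.641 and 0.319, adjusted p = 0.211, 0.129 and 0.529). These 4 of 26 members stand beside 10.4% of all tested genes that rose with the list, 6.44% that fell and 16.8% that passed in either direction, so the count is near the background. What part muscle content has in the spread of Hoxd8 was not tested.

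Hoxc8 and Hoxc6 followed the endothelial list (Pecam1, Cdh5, Kdr and others). Their r was 0.901 and 0.897 (permutation p = 0.00011 and 6e-05, adjusted p = 0.00453 and 0.00332), and rho was 0.916 and 0.902 (permutation p = 0.00011 and 0.00013). Without the 2 farthest libraries r was 0.844 and 0.838. With library size alone r was 0.538 and 0.678 and neither passed (adjusted p = 0.228 and 0.0927). This list moved in a narrow window, 4.57 to 4.90 at 5 mg/kg and 4.33 to 4.83 at 1 mg/kg, with all 11 genes tested and none at 0. Its 5 highest libraries were the 5 with the lowest B cell levels, a split described below. Hoxc8 also passed with the fibroblast, white adipocyte and Schwann cell lists, at r of 0.796, 0.810 and 0.800 (permutation p = 0.00096, 0.00154 and 0.00198, adjusted p = 0.0136, 0.0173 and 0.0199), and these 3 passed with library size alone as well. The rho of these 3 was 0.776, 0.853 and 0.818 (permutation p = 0.00421, 0.00071 and 0.00184), and r without the 2 farthest libraries was 0.694, 0.708 and 0.796. In all, 9 of 26 members passed with the endothelial list, 8 of them positive, beside 27.0% of all tested genes in either direction, 10.7% positive and 16.3% negative.

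Hoxb6 was the member closest to the white adipocyte list (r = 0.906, permutation p = 6e-05, adjusted p = 0.00332, rho = 0.902 at permutation p = 0.00016, r = 0.862 without the 2 farthest libraries), followed by Hoxc5 (r = 0.894, permutation p = 0.00015, adjusted p = 0.0053). Both passed with library size alone. Of 26 members, 7 passed positively with this list and 1 negatively, beside 13.6% and 17.9% of all tested genes (31.5% in either direction). The list (Adipoq, Plin1, Lep and others, 12 of 12 tested, none at 0) ran from 7.83 to 8.54 at 5 mg/kg and from 6.73 to 8.67 at 1 mg/kg. Hoxa5 was closest to the brown fat list (r = 0.885, permutation p = 0.00031, adjusted p = 0.00763, rho = 0.839 at permutation p = 0.00127, r = 0.879 without the 2 farthest libraries, and r = 0.734 with adjusted p = 0.0634 under library size alone), where 3 of 26 members passed, all positive, beside 10.2% of all genes positive and 6.7% negative (16.9% in either direction). Scaled by library size alone, 3 members passed with this list too, Hoxb9, Hoxc9 and Hoxd4, but all negatively, and 0 members passed under both scales. The share of all genes on that scale is not given, so these negative calls are not read as a trait of Hox genes. The brown fat list ran from 1.38 to 5.55 at 5 mg/kg and from 2.09 to 4.81 at 1 mg/kg, with 12 of 12 genes tested and none at 0. Hoxb3 was closest to the Schwann cell list (r = 0.854, permutation p = 0.00011, adjusted p = 0.00453, rho = 0.867 at permutation p = 0.00045, r = 0.861 without the 2 farthest libraries), with which 8 of 26 members passed positively and 1 negatively, beside 9.11% and 17.8% of all genes (26.9% in either direction). The Schwann list (Sox10 and others, 8 of 8 tested, none at 0) ran from 3.41 to 4.52 at 5 mg/kg and from 2.88 to 4.43 at 1 mg/kg.

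**Figure D3:**
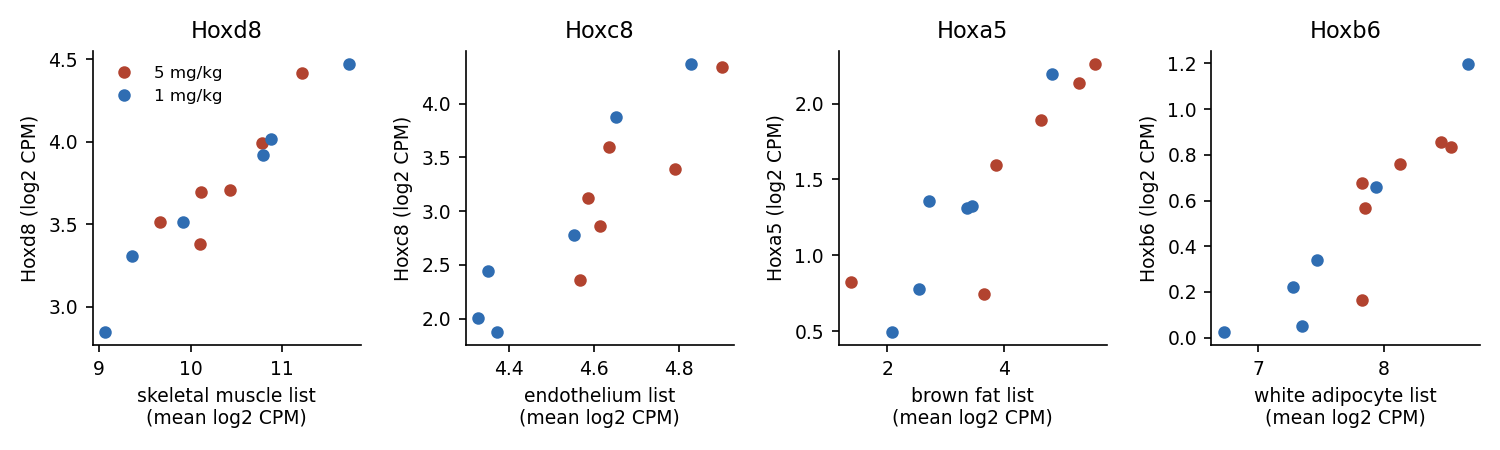
Log2 CPM of Hoxd8, Hoxc8, Hoxa5 and Hoxb6 against the level of the list each was closest to, 1 point per library, coloured by folic acid dose. The Pearson r over 12 libraries is 0.962, 0.901, 0.885 and 0.906 from left to right, and both doses lie along the same band.

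Few members passed with the epithelial lists, and the counts were near the background. The luminal and basal epithelium lists had 2 each, Hoxb3 and Hoxc8, both positive. Of all genes 8.48% passed positively and 1.4% negatively with the luminal list (9.88% in either direction), and 6.45% and 0.874% with the basal list (7.33%). For Hoxb3 and the luminal list r fell from 0.879 (permutation p = 0.0006, adjusted p = 0.0106) to 0.598 without the 2 farthest libraries. Scaled by library size alone, Hoxb3 passed with both lists (adjusted p = 0.00196 and 0.0109) and Hoxc8 with neither (0.058 and 0.0696), while Hoxb5, Hoxb6 and Hoxc9 passed with the luminal list (0.0354, 0.0445 and 0.034) and Hoxb6 with the basal list (0.0368). For these calls too the share of all genes on that scale is not given, and no trait of Hox genes is read from them. The fibroblast list had 5, namely Hoxc5, Hoxc6, Hoxc8 and Hoxb6 positively and Hoxd10 negatively, beside 9.08% positive and 10.4% negative of all genes (19.5% in either direction). Hoxd10 fell as the Schwann, endothelial, fibroblast and white adipocyte lists rose, at r of -0.756, -0.743, -0.702 and -0.731 (permutation p = 0.00505, 0.00659, 0.00694 and 0.00718, adjusted p = 0.0338, 0.0395, 0.0408 and 0.0416), and none of these 4 passed with library size alone. The rho of these 4 was -0.706, -0.755, -0.776 and -0.699 (permutation p = 0.0128, 0.00633, 0.00455 and 0.0143), and r without the 2 farthest libraries was -0.635, -0.646, -0.645 and -0.767.

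The B cell and T cell lists split into separate clusters of 5 and 7 libraries and the epidermis list into 10 and 2, so no pooled correlation is given for them. In the 5 libraries with the lowest B cell levels (-1.61 to -0.315), which included 3 at the higher dose and 2 at the lower, Hoxc8 lay between 10.5 and 20.6 CPM. In the other 7 (B cell levels of 3.28 to 6.17) it lay between 3.64 and 8.67 CPM. This separation was seen with TMM scaling alone: with library size alone Hoxc8 ran from 6.28 to 24.7 CPM in the 5 and from 4.02 to 9.82 CPM in the 7, and per length from 4.02 to 19.1 and from 2.85 to 7.01, and both overlapped, scales compared after the data were seen. With TMM Hoxd8 overlapped between these libraries too, at 11.4 to 21.3 CPM and 7.16 to 22.1 CPM. The same 5 libraries were also the highest 5 on the endothelial, white adipocyte and Schwann lists with TMM scaling. Their lowest levels on these 3 lists were 4.63, 7.93 and 3.96, where the other 7 reached at most 4.61, 7.85 and 3.83. For these 3 lists, the pooled r given above cannot be told apart from this split. What part immune content has in the Hoxc8 level was not tested.

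The genes whose pattern over the 12 libraries was most like that of 4 members were looked up among the other 18646 tested genes, a comparison chosen after the data were seen, with p adjusted over those genes. This comparison used log2 CPM with TMM scaling, and no value on another scale is given. The 6 named genes closest to Hoxd8 were Hfe2, Fer1l6, Cacng6, Stac3, Pkia and Kcnc4 (r of 0.983 to 0.990, permutation p = 1e-05 and adjusted p = 0.000686 for each). Hfe2, also called hemojuvelin, and Stac3, which serves excitation-contraction coupling, are genes of skeletal muscle, and Cacng6 encodes a calcium channel subunit of muscle. In all, 12.5% of genes passed with a positive r to Hoxd8 and 10.3% with a negative r. The closest Hox gene, Hoxa4, ranked 1126th with r = 0.831 (permutation p = 0.00097, adjusted p = 0.0125).

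For Hoxc8 the closest named genes were Tshz2, Palm, Parva, Igf1, Tjp1 and Rassf9, with r of 0.963 to 0.977 (permutation p = 1e-05, adjusted p = 0.0017). Tshz2 encodes a zinc finger homeobox protein, Igf1 a growth factor made by stromal and fat cells, and Tjp1 a tight junction protein. Hoxc6, its neighbour in the cluster, ranked 25th (r = 0.952, rho = 0.944, permutation p = 1e-05, adjusted p = 0.0017), with r of 0.963 at 5 mg/kg and 0.945 at 1 mg/kg. Hoxb6 ranked 166th (r = 0.919, permutation p = 3e-05, adjusted p = 0.00243). Hoxd10 went the other way (r = -0.855, permutation p = 0.00068, adjusted p = 0.00785). As many as 15.2% of all genes passed positively with Hoxc8 and 18.3% negatively. With TMM scaling Hoxc8 separated the 5 libraries with the lowest B cell levels from the other 7. Likeness to Hoxc8 on this scale cannot be told apart from that split.

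For Hoxa5, Hoxa4 ranked 322nd (r = 0.891, permutation p = 0.00014, adjusted p = 0.00599), where 14.0% of genes passed positively and 9.04% negatively. With TMM the coefficient of variation of CPM was 42.5% for Hoxa5 and 45.8% for Hoxa4, against 22.9% and 20.2% with library size alone. What part the TMM factors have in likeness to Hoxa5 was not tested. The closest named genes to Hoxa5 were Acadl, Crls1, Gnas, Cox6c, Usmg5 and Dnajc28 (r of 0.959 to 0.962, permutation p = 2e-05 to 4e-05, adjusted p = 0.00567). Acadl starts the oxidation of long-chain fatty acids, Crls1 makes the mitochondrial lipid cardiolipin, and Cox6c is a respiratory chain subunit. For Hoxa9 the closest of all 18646 genes was its neighbour Hoxa10 (r = 0.887, rho = 0.832, permutation p = 0.0002). It did not pass after adjustment over all genes (adjusted p = 0.268), and no gene did, beside 0% of all genes. Its r was 0.731 without the 2 libraries farthest from the Hoxa9 median, 0.676 at 5 mg/kg and 0.930 at 1 mg/kg. Hoxa9 and Hoxa10 share no annotated exon bases.

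Folic acid dose changed no Hox gene past the threshold. In edgeR's quasi-likelihood test with Benjamini-Hochberg adjustment, 0 of 26 tested members passed, as did 0 of 18647 genes in all (0%). At an unadjusted p under 0.05 there was 1 Hox gene, beside 359 of all genes (1.93%), 1.34% higher and 0.59% lower at 5 mg/kg. DESeq2 and limma-voom called 0 genes as well, with 776 and 361 genes at an unadjusted p under 0.05. The Hox log2 fold changes (5 mg/kg over 1 mg/kg) were positive for 18 members and negative for 8, with a median of 0.12, while 47.2% of all tested genes were positive with a median of -0.018. This split depended on the scale and on the covariate. With library size alone it was 13 and 13 (26.3% of all genes positive, median of all genes -0.16). With the fibroblast list as a covariate it was 9 positive and 17 negative (53.2% of all genes positive, median of all genes 0.018).

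**Figure D4:**
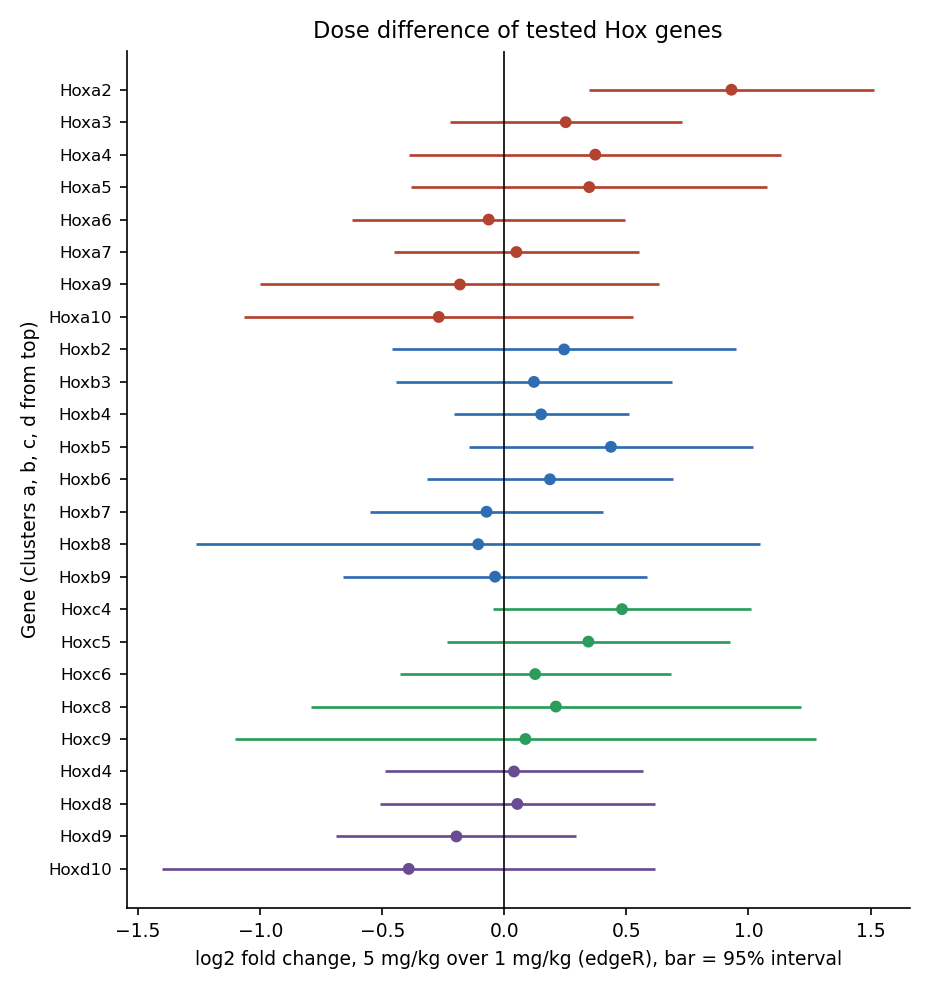
Log2 fold change of 5 mg/kg over 1 mg/kg for the tested Hox genes reported here with 95% intervals (edgeR, 6 libraries each). The interval of Hoxa2 runs from 0.35 to 1.51, and those of the other genes drawn include 0.

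Hoxa2, which gives the second pharyngeal arch its identity, had the smallest dose p of the members. It read 0.310, 0.357, 0.394, 0.414, 0.558 and 0.708 CPM in the 5 mg/kg libraries and 0.153, 0.168, 0.260, 0.273, 0.277 and 0.297 CPM in those given 1 mg/kg, so that the lowest at 5 mg/kg was just above the highest at 1 mg/kg. These are 21 to 32 reads per library against 10 to 20. The log2 fold change was 0.93 ± 0.27 (SE), with an unadjusted p of 0.00452 and an adjusted p of 0.943 in edgeR, so it did not pass. It was 1 of 8 genes (0.0429% of those tested) whose doses did not overlap. With library size alone the doses of Hoxa2 overlapped (lowest 0.351 CPM at 5 mg/kg, highest 0.394 CPM at 1 mg/kg), the fold change was 0.70, and 2 genes in all did not overlap. The range of the fold change over every alternative fit was 0.70 to 1.02, with adjusted p from 0.643 to 1. Of the exon bases of Hoxa2, 15% are shared with another annotated transcript.

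The next smallest values were those of Hoxc4, Hoxb5 and Hoxc5. Hoxc4 read 3.12, 3.14, 3.24, 3.53, 3.99 and 5.53 CPM in the 5 mg/kg libraries and 1.52, 2.09, 2.09, 2.95, 3.58 and 3.91 CPM in those given 1 mg/kg, with a log2 fold change of 0.48 ± 0.24 (SE). Its edgeR p was 0.0703 and adjusted p 0.943. The lowest 4 libraries were all at 1 mg/kg, and the other 2 of that dose lay among the 5 mg/kg libraries. Hoxb5 read 0.505, 0.826, 0.863, 0.866, 0.963 and 0.992 CPM in the 5 mg/kg libraries and 0.362, 0.443, 0.489, 0.672, 0.856 and 0.879 CPM in those given 1 mg/kg, with a log2 fold change of 0.44 ± 0.27 (SE). Its edgeR p was 0.128 and adjusted p 0.943. Of its 6 libraries at 5 mg/kg, 1 lay well below the other 5. Hoxc5 read 3.27, 3.46, 3.82, 4.57, 5.82 and 6.08 CPM in the 5 mg/kg libraries and 1.81, 2.41, 3.20, 3.74, 4.70 and 5.41 CPM in those given 1 mg/kg, with a log2 fold change of 0.34 ± 0.27 (SE). Its edgeR p was 0.222 and adjusted p 0.943, and the doses overlapped widely.

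**Figure D5:**
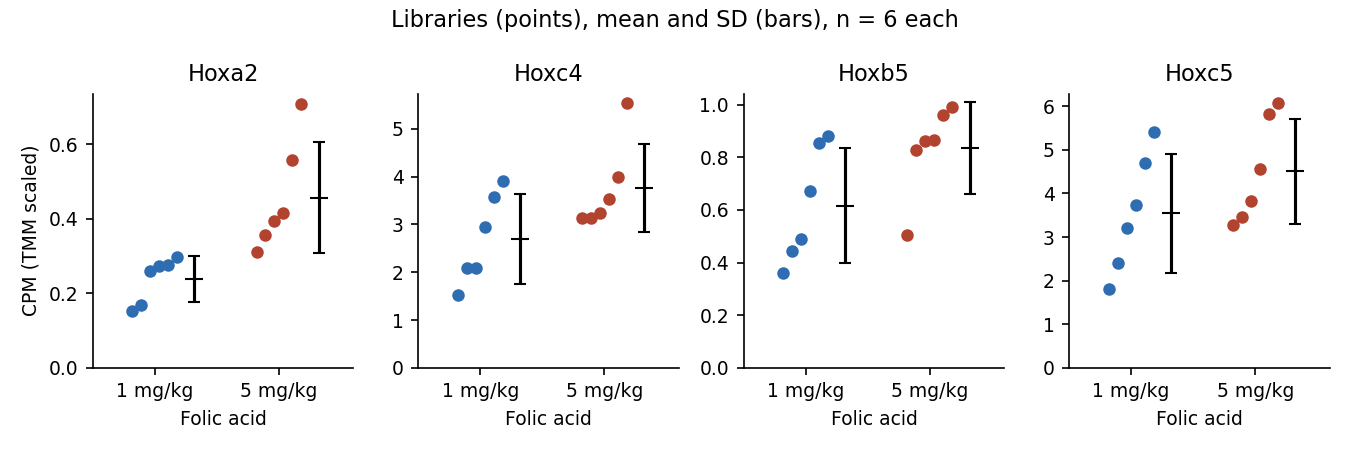
CPM in each library at 1 and 5 mg/kg for the 4 members with the smallest dose p, with mean and SD (n = 6 each). The groups are apart, by a small gap, for Hoxa2 and overlap for Hoxc4, Hoxb5 and Hoxc5.

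The genes that led the positional code had small dose differences with wide intervals. Log2 fold changes were 0.05 ± 0.26 for Hoxd8 (95% interval -0.51 to 0.62), 0.21 ± 0.46 for Hoxc8 (-0.79 to 1.22), 0.05 ± 0.23 for Hoxa7 (-0.45 to 0.55) and 0.13 ± 0.26 for Hoxc6 (-0.43 to 0.68). For Hoxb4 the interval was -0.21 to 0.51, and for Hoxd9 it was -0.69 to 0.30. Differences inside these bounds could not be told from 0 at this spread. Over the tested members, adjusted p ran from 0.943 to 0.984.

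Partners and regulators of Hox genes were read from the same fit, and none passed. The cofactor list, with 9 Pbx, Meis and Pknox genes, whose proteins bind DNA with Hox proteins, 2 Tgif genes and Pbxip1, had 12 of 12 genes tested, 3 positive and 9 negative. The most abundant was Pbxip1, a Pbx-binding protein, at 68.7 ± 16.2 CPM (SD, n = 12). The smallest p belonged to Pknox1 (log2 fold change -0.38 ± 0.25, SE) and Pbx3 (-0.16 ± 0.12), with edgeR p of 0.145 and 0.206 and adjusted p of 0.943. Polycomb genes, which keep silent Hox genes closed, had 31 of 31 tested, 9 positive and 22 negative, led by Phc3 at 80.3 ± 14.5 CPM. Rybp (-0.33 ± 0.15) and Rnf2 (-0.24 ± 0.12) had the smallest edgeR p, 0.0519 and 0.0558, adjusted p = 0.943. A mixed list of Trithorax-group genes, which keep active Hox genes open, and histone demethylases, among them 3 Kdm5 genes whose proteins remove an active mark, had 24 of 24 tested, 3 positive and 21 negative, led by Kmt2c at 167 ± 37.0 CPM. Ash1l (-0.25 ± 0.12) and Kdm6a (-0.24 ± 0.13) had the smallest edgeR p, 0.0667 and 0.0854, adjusted p = 0.943. The medians of these 3 lists were -0.089, -0.13 and -0.12, beside -0.018 and 52.8% negative over all tested genes. Library size alone shifts the median of all genes to -0.16. The medians of these 3 lists on that scale are not given, and what part scaling has in them was not tested.

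Upstream cues, a list with genes of the retinoic acid pathway, had 20 of 25 genes tested, 13 positive and 7 negative. Rxra, a retinoid receptor, was the most abundant at 64.2 ± 8.44 CPM. Cyp26b1, which degrades retinoic acid (-0.45 ± 0.25), and Ctcf (-0.27 ± 0.20), which insulates chromatin domains, had the smallest edgeR p, 0.0985 and 0.199, adjusted p = 0.943. Other regional homeobox and T-box genes had 22 of 30 tested, 14 positive and 8 negative, led by Prrx1, a limb and body wall mesenchyme gene, at 63.4 ± 16.6 CPM. Prrx2 (0.82 ± 0.28) and En1 (0.73 ± 0.29) had unadjusted edgeR p of 0.0112 and 0.0251 and did not pass (adjusted p = 0.943). Noncoding RNAs of the clusters had 4 of 10 found genes tested, all positive. Hoxb3os was the most abundant at 2.34 ± 0.764 CPM, and Hotairm1 (0.58 ± 0.35) and Hoxb3os (0.18 ± 0.27) had the smallest edgeR p, 0.122 and 0.513, adjusted p = 0.943.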

How the data were processed

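RNA-seq of 12 thoracic mammary fat pads was used, 6 at each dose. The authors deposited raw counts per gene. Per the labels' protocols, extraction used mirVana and library construction used Illumina's TruSeq RNA v2 chemistry, an unstranded protocol for polyadenylated RNA. The submitters' processing notes name STAR, HTSeq 0.6.1 and the build mm10. STAR's version, which annotation was used, and HTSeq's strand option are not given in the sources. Lines for reads given to no gene (16.7% to 35.7% of reads tallied) were left out. Symbols were matched for all but 346 of 55487 IDs, and positions and lengths came from GENCODE vM21.

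Dose was tested with edgeR 4.0.16 (R 4.3.3): filterByExpr, TMM, quasi-likelihood F-test over 18647 genes, Benjamini-Hochberg threshold 0.05. Alternatives were DESeq2 1.42.0, limma-voom (limma 3.58.1), other scalings, filters and lengths, covariates for tissue content, and leaving out each library. Log2 CPM used a prior count of 2, and per-length log2 ratios a pseudocount of 0.01. Relations to cell type lists were adjusted over all tested genes in place of the members and lists alone that had been planned. Lists whose levels split by a gap of over 0.333 of their range were given no correlation. The members and lists were chosen with earlier results of these data known. Named genes were the members by mean CPM or level of at least 1, the 2 highest of each cluster and the 4 with the smallest dose p, and of each companion list the most abundant and the 2 with the smallest p. Scripts were tested on simulated counts. The values of 1 member are not reported here, though it is counted in sums and shares.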

Additional observations from a re-analysis of the deposited data

Results flagged for a closer look

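Within each dose group of 6 libraries, a value was set apart when its gap to the nearest library was above Dixon's 95% critical value as a share of the group's range. Of 52 groups of values (26 members at 2 doses) 6 had such a library. The nominal rate of the rule, for groups that do not depend on each other, is about 1 in 20. These groups share the same libraries and TMM factors, and the share over all tested genes was not computed. No excess over chance is therefore read from the 6. Hoxa5 in replicate 3 at 1 mg/kg was the highest of its group at 4.55 CPM, where the other 5 libraries ran from 1.38 to 2.53 CPM. Hoxb4 in replicate 5 at 5 mg/kg was the highest of its group at 4.54 CPM, where the other 5 libraries ran from 2.99 to 3.25 CPM. Hoxb5 in replicate 2 at 5 mg/kg was the lowest of its group at 0.505 CPM, where the other 5 libraries ran from 0.826 to 0.992 CPM. Hoxc4 in replicate 5 at 5 mg/kg was the highest of its group at 5.53 CPM, where the other 5 libraries ran from 3.12 to 3.99 CPM. Hoxc9 in replicate 6 at 5 mg/kg was the highest of its group at 0.978 CPM, where the other 5 libraries ran from 0.0886 to 0.301 CPM. Hoxd4 in replicate 6 at 5 mg/kg was the highest of its group at 1.48 CPM, where the other 5 libraries ran from 0.827 to 0.974 CPM. Replicate 5 at 5 mg/kg, which also had the smallest TMM factor (0.60) and the most reads (75299437), was set apart for Hoxb4 and Hoxc4, and replicate 6 at 5 mg/kg, the highest of its group in Hoxc8, for Hoxc9 and Hoxd4. With library size alone or per length, scales compared after the data were seen, only Hoxc9 of these 6 was still set apart (1.20 CPM where the others ran to 0.283, and 1.08 per length where the others ran to 0.225). Hoxb4 and Hoxc4 in replicate 5 then lay within the others, per length at 1.92 (others 1.73 to 3.40) and 2.34 (2.27 to 3.69), and so did Hoxb5 in replicate 2, at 0.441 (0.337 to 0.928). Hoxa5 and Hoxd4 stayed the highest of their groups, per length at 3.56 (others 2.04 to 2.90) and 1.34 (0.359 to 0.743). The part of tissue content in these values was not tested.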

How the results depend on the processing

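No paired analysis was possible because replicates were numbered in accession order and no title number occurs in both doses. The count of genes called for dose was 0 for all genes and for Hox members under every fit run, in all 12 fits that left out 1 library too. Single fold changes near 0 changed sign. With library size alone Hoxa7 was -0.047, Hoxb4 -0.0055 and Hoxd8 -0.086. With the B cell list as covariate Hoxd8 was -0.0079. With the fibroblast list as covariate Hoxc5 was -0.025, Hoxa7 -0.041, Hoxb4 -0.039, Hoxb6 -0.091, Hoxc8 -0.46, Hoxc6 -0.26 and Hoxd8 -0.16. With the brown fat list Hoxa7 was -0.13, Hoxa5 -0.032 and Hoxd8 -0.11. Leaving out 1 library moved Hoxa7 from -0.076 to 0.20, Hoxd8 from -0.091 to 0.24, Hoxc8 from -0.077 to 0.63 and Hoxd9 from -0.31 to 0.018. None of these values passed in any fit, and the cause was not tested. The fold changes of Hoxa2, Hoxc4 and Hoxb5 kept their sign under every alternative run.

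The number of members with a per-length level of at least 1 went from 15 to 23 with coding length and to 25 with mitochondrial genes left out of the total. It was 14 to 15 when 1 library was left out. Hoxd8 and Hoxc8 remained the first 2 under every length and without any 1 library, and groups 4 to 8 held 79.6% to 83.0% of the Hox level. The order of Hoxb3 and Hoxb4 turned (-0.30) when bases shared with other genes were left out of the length, an alternative chosen after seeing the data. Hoxc5 over Hoxc4 turned to -0.15 with the longest transcript as length, and Hoxb7 over Hoxb6 to -0.0044 with a pseudocount of 1 and to 0.26 with the longest transcript, where it passed (exact sign-flip adjusted p = 0.0403). Relations to tissue lists went from 42 to 24 with library size alone, 15 of them shared with the same sign. All 42 kept their sign without the 2 farthest libraries. Depth limits the genes of groups 11 to 13, at 1 to 15 reads each.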
